A study of Mus musculus with 30 samples.

Results

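Synaptotagmin 7 (Syt7), Erc2, epsin 1 (Epn1), Exoc7 and Sh3glb2 are 5 genes of neurotransmitter release and membrane trafficking whose splicing was followed here across 3 classes of mouse neuron with and without the RNA-binding protein NOVA2. The genes were chosen with their splicing differences in these data in view, so their levels and counts describe them and test nothing. All rows of the authors' 4 deposited splicing tables that carry 1 of the 5 gene symbols were used. They are 80 of 6491 table rows, and 55 of 4914 distinct splicing events, in 5 of 1828 genes. Syt7 had 36 rows, Erc2 23, Exoc7 10, Sh3glb2 8 and Epn1 3.

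The labels describe 30 mouse samples in 10 groups of 3, of which 18 samples in 6 groups stand behind the tables used here. Cortical neurons were isolated by fluorescence-activated sorting at embryonic day 18.5 from Emx1-Cre mice and from Gad2-Cre mice, each as a wild-type control carrying the Cre and as a conditional Nova2 knockout (cKO) with the same Cre. At postnatal day 28, the Purkinje cell layer of the cerebellum was taken by dissection from wild-type controls and Nova2 cKO mice, both with Pcp2-Cre. All 6 groups were C57BL/6J, and ribosomal RNA was removed before sequencing. A further 12 samples in 4 groups were left aside and are not analysed here.

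Emx1-Cre is active in the lineage of excitatory cortical neurons and their glia, Gad2-Cre in GABAergic neurons and Pcp2-Cre in Purkinje cells. The dissected Purkinje layer also holds cells in which Pcp2-Cre is not active. The tables hold splicing levels and no expression, so neither the purity of the sort nor the loss of Nova2 could be measured from them. Of 33 marker genes of neuron and glia classes, 2 had a listed event in each cortical cKO table (Dlx1 and Itpr1 with Emx1-Cre, Dlx1 and Gad1 with Gad2-Cre) and 1 in the Purkinje table (Itpr1). Whether replicate samples are from different animals is not in the labels. No source used here says whether spread between replicates enters the authors' FDR. If it does, that spread may in part be technical.

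For each event and group the authors deposited a single inclusion level, which is a fraction between 0 and 1 and pools the group's samples. No value of a single library, and so no replicate error, can be given. An event was listed where the authors' false discovery rate (FDR) was at most 0.05 and the levels differed by at least 0.1. Coverage is taken here as a measure of the reads behind an event, although no source used here defines it. It was at least 20 in each listed event. An event that is not listed in a table missed 1 of these limits, and its level there is not known. Among the 5 genes the smallest listed difference was that of an Erc2 form in the Emx1-Cre table, 0.106 by the authors' levels. The labels do not say which Purkinje group comes first in its table. These groups are called 1 and 2, and no value below says whether a Purkinje level rose or fell in the cKO.

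NOVA2 is a neuronal splicing factor that binds clusters of a short motif in pre-mRNA, CA flanked by a pyrimidine on either side, and can raise or lower the use of a nearby exon depending on where it binds. At the presynaptic active zone, scaffold proteins such as the Erc2 product hold docked vesicles near calcium channels. Synaptotagmins sense the calcium that enters and start fusion, epsins and endophilins shape the membrane that is taken up again, and the exocyst tethers vesicles to the plasma membrane. Alternative exons in such genes can change linkers and binding surfaces of the proteins.

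Of the alternative exons in these events, 9 that are coding over their whole length are shown by sequence, so that their length, frame and motif content can be seen. They were read from the GENCODE M21 transcripts, which use the mm10 build of the tables, and run 5′ to 3′ on the transcribed strand. Capitals mark the motif that NOVA proteins bind in its 4 spellings, which are TCAT and the form CCAT, as well as both of these with a final C, that is TCAC in the first case and in the second case CCAC. Overlapping matches were counted, on this strand only.
Epn1, exon of 75 nt, chr7:5093312-5093386, plus strand: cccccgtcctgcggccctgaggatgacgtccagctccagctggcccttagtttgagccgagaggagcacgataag
Erc2, exon of 24 nt, chr14:27776159-27776182, plus strand: ttactggacgccagaagaaccaag
Erc2, exon of 12 nt, chr14:28046475-28046486, plus strand: cttgactctcag
Exoc7, exon of 69 nt, chr11:116296730-116296798, minus strand: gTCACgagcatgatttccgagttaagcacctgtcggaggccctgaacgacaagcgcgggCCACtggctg
Exoc7, exon of 93 nt, chr11:116297571-116297663, minus strand: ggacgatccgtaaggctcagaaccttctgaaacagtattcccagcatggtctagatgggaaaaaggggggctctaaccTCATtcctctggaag
Sh3glb2, exon of 15 nt, chr2:30346059-30346073, minus strand: ctcccagggtgCCAT
Syt7, exon of 132 nt, chr19:10421757-10421888, plus strand: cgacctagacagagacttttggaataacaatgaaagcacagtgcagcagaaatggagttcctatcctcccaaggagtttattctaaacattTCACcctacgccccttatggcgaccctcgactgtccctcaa
Syt7, exon of 228 nt, chr19:10422785-10423012, plus strand: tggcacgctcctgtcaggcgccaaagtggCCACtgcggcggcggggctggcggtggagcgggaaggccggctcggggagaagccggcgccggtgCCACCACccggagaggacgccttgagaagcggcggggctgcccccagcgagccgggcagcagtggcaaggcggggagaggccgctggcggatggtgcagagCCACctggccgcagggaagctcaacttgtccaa
Syt7, exon of 123 nt, chr19:10430338-10430460, plus strand: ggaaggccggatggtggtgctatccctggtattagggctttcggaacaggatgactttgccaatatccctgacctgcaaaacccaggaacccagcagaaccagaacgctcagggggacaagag

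The cassette and tandem events of the 5 genes used 25 distinct alternative regions, 13 of which are GENCODE exons. Of these, 11 were coding over their whole length in at least 1 transcript, the 9 above, a Syt7 exon of 369 nt and an Erc2 exon of 36 nt. The length of all 11 was a multiple of 3, so that each adds or removes whole codons, from 4 codons for the 12-nt Erc2 exon to 123 for the 369-nt Syt7 exon. Among the 717 distinct cassette exons of the 4 tables that are wholly coding GENCODE exons, 72.9% had such a length, and among all 165262 internal wholly coding GENCODE exons 41.1% did.

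The motif was spread unevenly over the exons. The Epn1 exon, the 12-, 24- and 36-nt Erc2 exons and the last Syt7 exon held none. For scale, 66.9% of all wholly coding exons of 75 nt hold at least 1 match, as do 27.7% of those of 24 nt, 8.57% of those of 12 nt and 84.7% of those of 123 nt. The 228-nt Syt7 exon held 4 matches, and 59.6% of the 272 coding exons of its length hold as many. The 369-nt Syt7 exon held 7, as many as 50% of 18 exons of that length hold. The 69-nt Exoc7 exon held 2, which 26.1% of 1013 exons of its length do. The 132-nt Syt7, 93-nt Exoc7 and 15-nt Sh3glb2 exons held 1 each. In all, 6 of the 11 had at least 1 match, against 473 of the 717 listed exons, and 3 of the 11 had more than the median of 1 in those 717. Introns, where NOVA binding is also known, were not read, because no genome sequence was at hand. A match is a string of letters and not a shown binding site.

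In Epn1, an exon that was minor in controls was the main form in cKO neurons of both cortical classes. Epn1 (ENSMUSG00000035203) encodes a clathrin adaptor that binds membrane lipid and ubiquitinated cargo and helps to bend the membrane of a coated pit. Its 75-nt exon, which adds 25 codons, lies between exons at 5092841-5092965 and 5093899-5093982 of chromosome 7. In the authors' deposited tables it was included at 0.20 in Emx1-Cre controls and at 0.807 in the cKO, with a coverage of 281. In Gad2-Cre neurons the authors' level was 0.226 in controls and 0.656 in the cKO, with a coverage of 149. The controls of both classes were thus near a level of 0.2 and the exon was not listed as different between them, while the cKO levels were 0.607 and 0.430 higher.

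The same exon was listed in the Purkinje layer, at the authors' level of 0.187 in group 1 and 0.438 in group 2 and a coverage of 346. Only 2 events of the 5 genes were listed in all 3 tables that compare control and cKO, this exon and a pair of Syt7 exons. The same count was not made over all genes, so nothing is read from it. Over the 4 cortical levels, the 2 genes whose cassette exon was closest to that of Epn1 were Cadm1 (Euclidean distance 0.0583) and Agfg1 (0.0763). By the authors' values the Cadm1 exon went from 0.196 to 0.753 and from 0.212 to 0.673, and the Agfg1 exon from 0.235 to 0.831 and from 0.171 to 0.687, with Emx1-Cre given first.

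**Figure D1:**
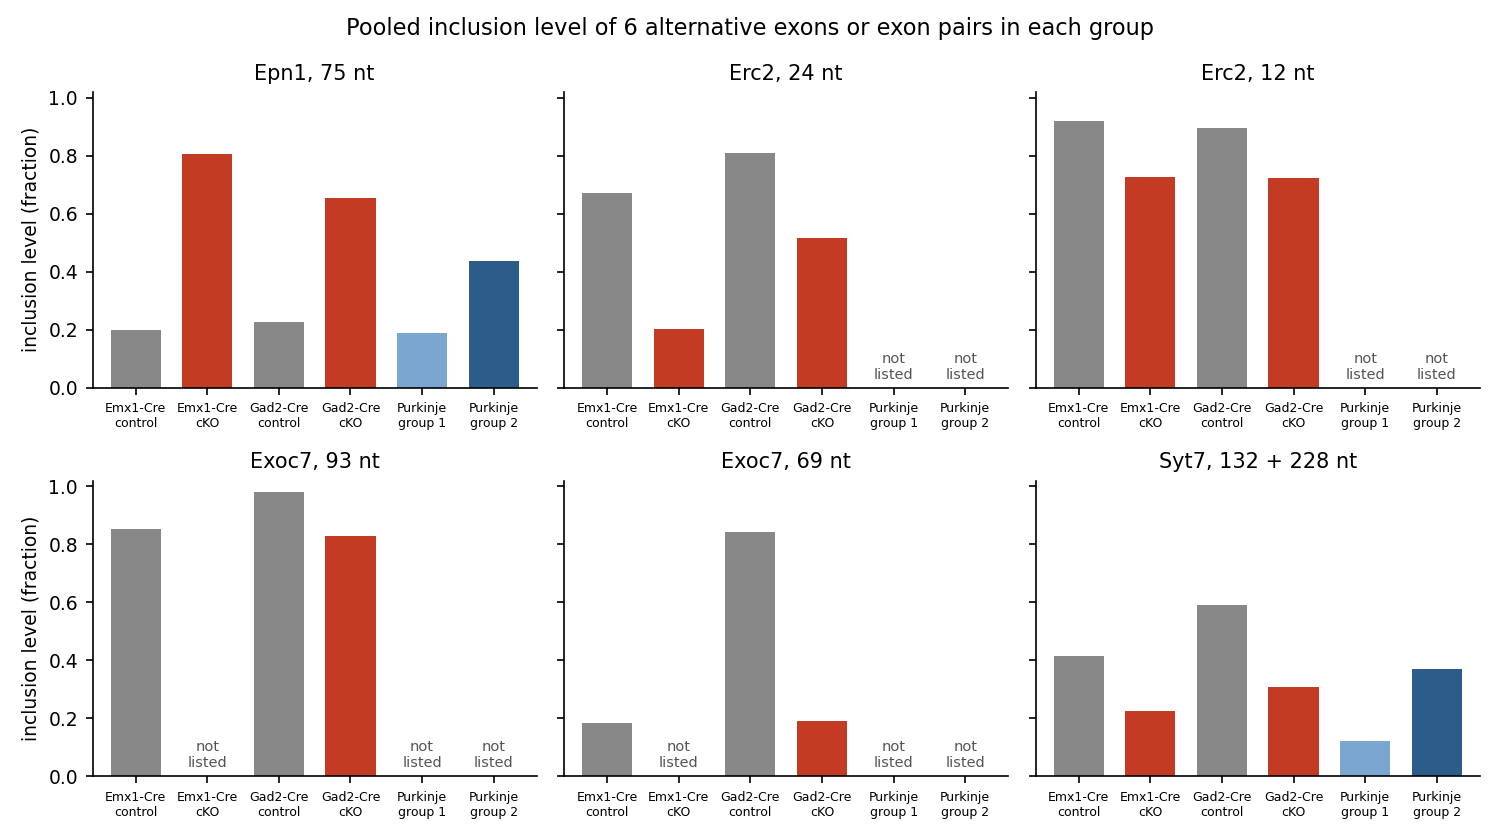
Bars give the authors' pooled inclusion level (fraction, from 0 to 1) of 6 alternative exons or exon pairs of Epn1, Erc2, Exoc7 and Syt7 in the 6 groups; there is 1 pooled value per bar and no error, and "not listed" means that no level is known. The Epn1 exon is near 0.2 in both cortical controls and highest in the cKO, the Erc2 and Syt7 exons are lower in each cortical cKO, and the 69-nt Exoc7 exon is high in Gad2-Cre controls alone among its 3 listed groups.

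Erc2 changed in the opposite direction: exons that most control RNA carried were skipped more often without Nova2. Erc2 (ENSMUSG00000040640, chromosome 14) encodes CAST, a coiled-coil scaffold of the active zone that binds RIM, Piccolo and Bassoon. Its 24-nt exon, of 8 codons, was included at 0.672 in Emx1-Cre controls and 0.203 in the cKO in the authors' deposited table (coverage 356). In Gad2-Cre neurons the authors' levels were 0.810 in controls and 0.515 in the cKO (coverage 194). In this cassette event skipping was the main form in Emx1-Cre cKO neurons alone, while at 0.515 the Gad2-Cre cKO had both forms near equal. In the other events with this skipping junction, given below, the skipping side was the larger one in the Gad2-Cre cKO as well. The controls also differed, by 0.138, and the Gad2-Cre cKO level stayed above the level of the Emx1-Cre cKO.

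A second Erc2 microexon, of 12 nt and 4 codons, moved less and almost equally in both classes. By the authors' values it went from 0.920 to 0.727 in Emx1-Cre neurons and from 0.897 to 0.722 in Gad2-Cre neurons, at coverages of 75.7 and 73.4. It was not listed between the controls. An exon of 66 nt at 28317249-28317314 fell from 0.693 to 0.509 in the Emx1-Cre table of the authors and was listed nowhere else. In 2 GENCODE transcripts with this exon the reading frame ends inside it, after 24 bases, and the stop codon starts at 28317273. Of the transcripts that lack this exact exon, 1 has its stop codon at 28475774, 1 also at 28317273 and 1 at 27879480.

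The remaining Erc2 events share these exons and the junctions that skip them, so they are not separate evidence. Pairs made of the 24-nt exon and a region of 113 nt fell from 0.428 to 0.0830 in Emx1-Cre and from 0.622 to 0.274 in Gad2-Cre neurons by the authors' values. With a region of 67 nt in place of the 113 nt, the authors' levels went from 0.429 to 0.0962 and from 0.633 to 0.296. Neither region is a GENCODE exon. The pair of the 12-nt exon and a region of 69 nt fell from 0.789 to 0.457 and from 0.749 to 0.465 by the authors' values.

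Events of mutually exclusive exons moved the other way. Their first-named form is an exon of 797 nt (27652687-27653483), which is also the exon before the 24-nt exon in its cassette and pair events. The numbers in the event names place the 24-nt exon as the other form. They also give the 797-nt form the same number that the pair events give to skipping. A rise of the 797-nt form can thus restate skipping of the 24-nt exon, and a swap between the exons was not tested. One of these events, which starts from the exon at 27622442, gave the 797-nt form 0.474 in Emx1-Cre controls and 0.847 in the cKO, and 0.332 and 0.635 in Gad2-Cre neurons, by the authors' values. The other, which starts from 27623683, gave 0.364 and 0.820, and 0.241 and 0.516. One more event, whose first-named form is an exon of 194 nt, was listed with Emx1-Cre alone, from 0.217 to 0.323 at an authors' FDR of 0.0485, just inside the limit.

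Of 9 Erc2 events in the Emx1-Cre table, 7 were also in the Gad2-Cre table, and all 7 had the same direction there. In the Purkinje layer none of the cortical Erc2 events was listed. Over all genes, 161 of the 2682 Emx1-Cre events and 147 of the 1970 Gad2-Cre events were also listed there, so nothing is read from this. There the authors listed pairs of a 36-nt coding exon (28029434-28029469) with a region of 18 or 236 nt, both at 0.311 in group 1 and 0.466 in group 2, with FDRs of 0.0481 and 0.0274. The cassette exons closest to the 24-nt exon over the 4 cortical levels were in Epb4.1l3 (Euclidean distance 0.131) and Arhgef10l (0.170).

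In Syt7, most listed cortical events involved the 228-nt exon of the linker. Syt7 (ENSMUSG00000024743, chromosome 19) encodes a calcium sensor with high affinity and slow kinetics, known for asynchronous release, facilitation and vesicle replenishment. Its alternative exons lie between an exon of 80 nt (10417963-10418042) and one of 136 nt (10435550-10435685), in the region that codes for the linker between the membrane anchor and the calcium-binding C2 domains. GENCODE has 9 coding transcripts that differ in this stretch, from none of the exons of 132, 228, 369 and 123 nt (1209 coding bases) to all 4 of them (2061 coding bases).

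In Emx1-Cre neurons 7 Syt7 events were listed, and 6 of them compare forms with and without the 228-nt exon. As a cassette before the 369-nt exon, the authors' deposited table had it at 0.625 in controls and 0.179 in the cKO, with a coverage of 23. The pair of the 228- and 369-nt exons fell from 0.313 to 0.0483, again the authors' levels. The pair of the 132- and 228-nt exons fell from 0.416 to 0.225, and that of the 228- and 123-nt exons from 0.468 to 0.333.

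Where the 132-nt exon was set against the 228-nt exon, the authors' share of the 132-nt form rose from 0.589 to 0.865. Where the 228-nt was set against the 369-nt exon, after the 132-nt exon, its share fell from 0.262 to 0.0953. The only event without the 228-nt exon, the pair of the 132- and 369-nt exons, fell from 0.395 to 0.246 by the authors' values. All 4 pairs are compared with the direct junction of the outer exons, as is the 1 Gad2-Cre event, so a single difference in that junction enters each of them. Coverage of the 7 events ran from 22 to 68, all below the median coverage of the events in this table, 71.

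In Gad2-Cre neurons 1 Syt7 event was listed. The pair of the 132- and 228-nt exons fell from 0.591 to 0.308 by the authors' values, at a coverage of 30.0. No Syt7 event was listed between the controls. The tandem events with levels closest to this pair were in Stau2 (Euclidean distance over 4 levels 0.122) and Pdzd4 (0.134).

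The Purkinje layer listed 28 Syt7 events, 20 higher in group 2 and 8 lower, and here the last alternative exon, of 123 nt at 10430338-10430460, led. Skipped or included between the outer exons, it was at 0.128 in group 1 and 0.642 in group 2 (authors' deposited table, coverage 312). After the 132-nt exon the authors' levels were 0.330 and 0.733, and after the 369-nt exon 0.535 and 0.969. The largest difference was in the events of shorter forms of the same exon, of 88 and 74 nt, after the 369-nt exon, both at 0.346 and 0.940. By the numbers in the event names, they share the junction to the next exon and the skipping junction with the 123-nt form. All of them had a coverage of 76, so the change cannot be assigned to the shorter forms themselves. The level was above 0.5 in group 2 in each event named here, and in group 1 it was so for the 123-nt form after the 369-nt exon alone.

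Against the direct junction of the outer exons, forms with exons further upstream were also higher in Purkinje group 2, some of them together with the 123-nt exon. The 132-nt exon was at 0.254 and 0.532 by the authors' values, in groups 1 and 2. Pairs of the 369- and 123-nt exons were at 0.177 and 0.704, of 132 and 123 nt at 0.184 and 0.634, and of 228 and 123 nt at 0.0951 and 0.553. The pair of 132 and 228 nt was at 0.123 and 0.371, and that of 132 and 369 nt at 0.190 and 0.446. All of these compare forms with the exons to the direct junction of the outer exons, so a single difference in that junction enters each of them. Set against the 123-nt exon or its shorter forms instead, the 132- and 369-nt exons were lower in group 2.

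Of the 8 Purkinje events lower in group 2, 5 were mutually exclusive events. Their first-named form was the 132-nt exon, a form of it of 124 nt, or the 369-nt exon, and the numbers in the event names place the 123-nt exon or its shorter forms on the other side. The largest of them put the 369-nt exon at 0.489 in group 1 and 0.0378 in group 2 by the authors' values. The other 3 were pairs after the 132-nt exon. A 123-nt exon at 10422395-10422517, which is not wholly coding in any GENCODE transcript, paired with the 369-nt exon, was at 0.250 and 0.0838. A 78-nt form of it in the same pair was at 0.237 and 0.0555, and the pair of the 228- and 369-nt exons was at 0.275 and 0.164.

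Cortical and Purkinje tables overlapped in 3 Syt7 events, the pairs of 132 and 369, 132 and 228, and 228 and 123 nt. All 3 fell in Emx1-Cre cKO neurons, and all 3 were higher in Purkinje group 2. Whether these are the same or opposite directions depends on the order of the Purkinje groups, which the labels do not give. The Epn1 exon, higher in the cKO of both cortical classes, was also higher in Purkinje group 2. Under either order, Epn1 and these Syt7 pairs thus did not both keep their cortical direction. The classes also differ in age, region and isolation, so class and age cannot be told apart.

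**Figure D2:**
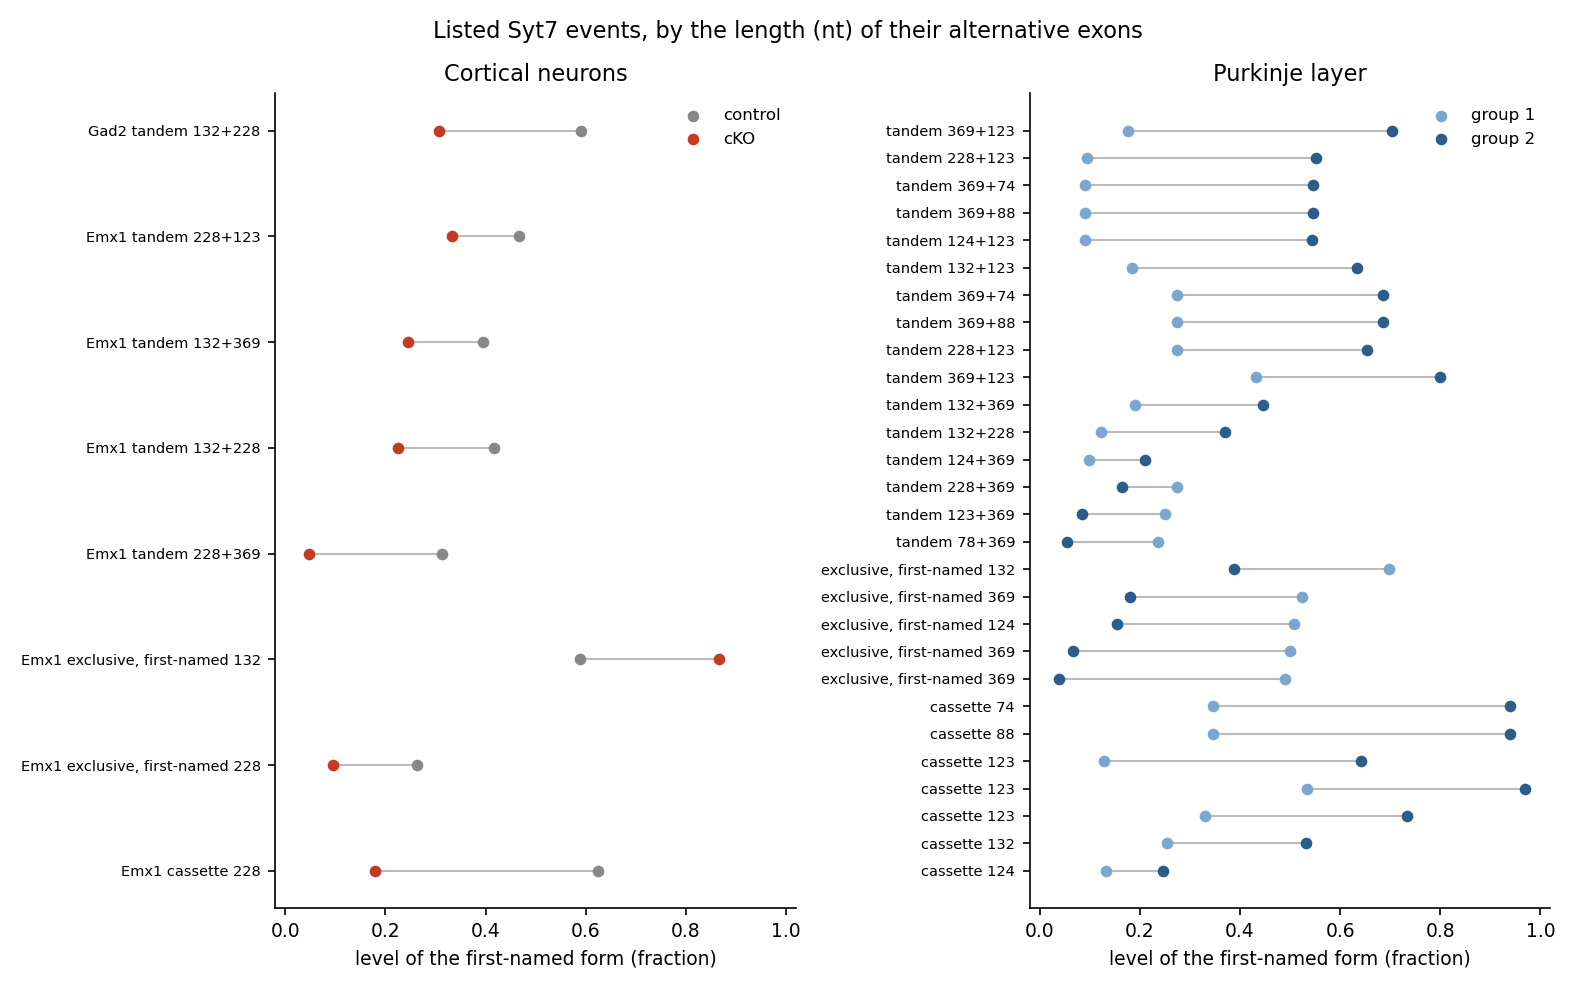
Each line is 1 listed Syt7 event, and its points are the authors' pooled levels (fraction) of the first-named form in control and cKO cortical neurons (left, 7 Emx1-Cre events and 1 Gad2-Cre event) or in Purkinje groups 1 and 2 (right, 28 events). Labels give the lengths in nt of the alternative exons; in the pair labelled 123+369 the first exon is the one at 10422395, and elsewhere 123 is the last alternative exon. All cassette and tandem events are lower in the cortical cKO, and 20 of the 28 Purkinje events are higher in group 2.

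Exoc7 stood apart from the others: its exons were listed in Gad2-Cre neurons and between the controls, and in no Emx1-Cre or Purkinje comparison. Exoc7 (ENSMUSG00000020792, chromosome 11) encodes Exo70, the exocyst subunit that binds phosphoinositides of the plasma membrane and branched actin regulators. The 69-nt exon, of 23 codons, was at 0.183 in Emx1-Cre controls, 0.842 in Gad2-Cre controls and 0.189 in Gad2-Cre cKO neurons in the authors' deposited tables. Its coverage was 26.7 in both comparisons, close to the lowest that the authors list. Gad2-Cre cKO neurons thus were 0.653 below their own control and near the level of Emx1-Cre controls. Both comparisons use the same Gad2-Cre control level, so that 1 high value enters both.

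The neighbouring 93-nt exon, of 31 codons, was likewise highest in Gad2-Cre controls, with smaller steps and the other 2 groups close together. By the authors' values it was at 0.852 in Emx1-Cre controls, 0.980 in Gad2-Cre controls and 0.828 in Gad2-Cre cKO neurons. A form of 130 nt that is not a GENCODE exon was at 0.755, 0.961 and 0.706. The pair of the 69- and 93-nt exons was at 0.675, 0.960 and 0.661, and that of the 69- and 130-nt regions at 0.229, 0.874 and 0.255. All 5 Exoc7 events were higher in Gad2-Cre than in Emx1-Cre controls and fell in the Gad2-Cre cKO. They share the junction that skips both exons, and their coverage was from 26.7 to 41.9. The 2 cassette exons closest to the 69-nt exon, over the 2 Gad2-Cre levels, were in Cask (Euclidean distance 0.0376) and Atp11b (0.0541).

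Sh3glb2 was listed for introns in the cKO comparisons and for a microexon between the controls. Sh3glb2 (ENSMUSG00000026860, chromosome 2) encodes endophilin B2, a BAR-domain protein of intracellular membranes. Direction in these intron events is read from the authors' order of isoforms, which names the retained form first. The names of these events end with the spliced form, however, whereas those of cassettes end with the included form, so the reading is not settled. If the level were that of the spliced form, the values below would be spliced shares and each direction of retention would turn. The first intron below would then have had a retained share of 0.639 in Emx1-Cre controls and 0.408 in the cKO, and 0.588 and 0.455 in Gad2-Cre neurons. An intron of 1450 nt at 30347105-30348554 went, read as a retained share, from 0.361 to 0.592 in Emx1-Cre neurons (coverage 196) and from 0.412 to 0.545 in Gad2-Cre neurons (coverage 150) by the authors' values. The Gad2-Cre difference, with an FDR of 0.0471, was just inside the limit. On the same reading, the level was higher in the cKO for 84.2% of 297 listed intron events with Emx1-Cre and 73.1% of 242 with Gad2-Cre, beside 2 of 2 and 1 of 1 for Sh3glb2.

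A second Sh3glb2 intron, of 413 nt at 30345940-30346352, holds the 15-nt exon. Its retained share, on the same reading, was 0.461 in Emx1-Cre controls, 0.761 in Emx1-Cre cKO and 0.923 in Gad2-Cre controls by the authors' values, at coverages of 39.8 and 24.6. The spliced form of this event is the junction that skips the 15-nt exon. RNA spliced through that exon is in neither form, so these levels are not shares of all Sh3glb2 RNA. It was not listed in the Gad2-Cre cKO comparison. Between the controls the 15-nt exon, of 5 codons, was at 0.866 with Emx1-Cre and 0.985 with Gad2-Cre, and forms of 50 and 87 nt were each at 0.775 and 0.973. The intron event and the exon events use the same junction, the one that skips the 15-nt exon, and had the same coverage, so they are not separate evidence. The first-named form of a 3′ splice site event of Sh3glb2 was at 0.239 and 0.351 in these controls, with an authors' FDR of 0.0494. The introns closest to the 1450-nt intron over the 4 cortical levels were in Eif4a1 (Euclidean distance 0.0918) and Slc4a3 (0.108).

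Across the 5 genes, cassette and tandem events fell in cortical cKO neurons in every case but Epn1. With Emx1-Cre, 1 of 12 was higher in the cKO, where 47.5% of all 1622 listed cassette and tandem events were. With Gad2-Cre, 1 of 12 was higher, where 34.3% of 1152 were. The 11 lower events come from 2 genes with Emx1-Cre (Erc2 and Syt7) and from 3 with Gad2-Cre (Erc2, Syt7 and Exoc7), and they overlap. In the Purkinje layer, 23 of 26 were higher in group 2, beside 65.8% of 453. Between the controls 11 of 11 were higher with Gad2-Cre than with Emx1-Cre, beside 64.2% of 877. Since the genes were chosen on these comparisons, nothing is read from the distance between these shares.

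The median size of a difference over all event types was 0.276 for the 19 events of the 5 genes in the Emx1-Cre table, and 0.209 over all events listed there. It was 0.295 for 15 events and 0.202 with Gad2-Cre, 0.380 for 31 events and 0.170 in the Purkinje table, and 0.198 for 15 events and 0.201 between controls. The tables of cKO neurons of the same class and the table of controls share control samples.

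The cortical tables shared 10 events of the 5 genes, 7 of Erc2 and 1 each of Epn1, Sh3glb2 and Syt7. These were 10 of 19 with Emx1-Cre (52.6%) and 10 of 15 with Gad2-Cre (66.7%). Over all genes the 815 shared events were 30.4% of 2682 and 41.4% of 1970. Since the genes were chosen on these tables, nothing is read from that distance. All 10 had the same direction, as did 97.4% of the 815 events that the tables shared in all. The difference was larger in Emx1-Cre neurons for 7 of the 10 and in Gad2-Cre neurons for 3, while over all shared events it was larger in Emx1-Cre for 434 and in Gad2-Cre for 381. Whether any of these differences differed between the classes was not tested, since no spread between samples is given.

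**Figure D3:**
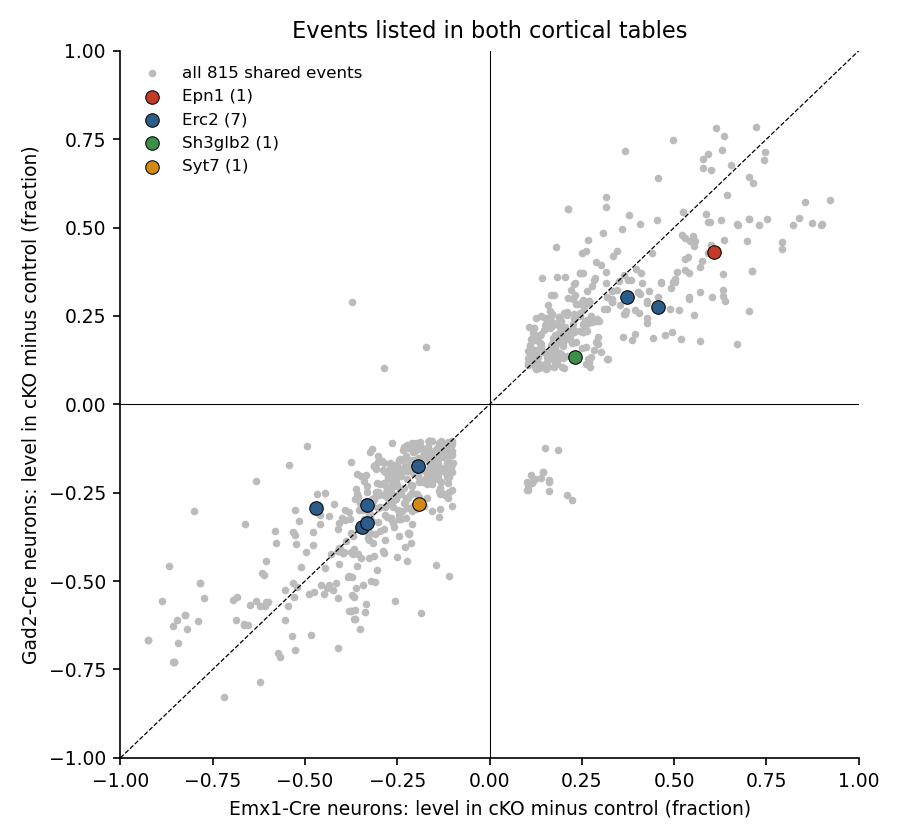
Each point is 1 of 815 events listed in both cortical tables, placed by the authors' level in cKO minus control (fraction) in Emx1-Cre (horizontal) and Gad2-Cre neurons (vertical); the dashed line marks equal differences and coloured points are the 10 events of Epn1, Erc2, Sh3glb2 and Syt7. All 10 lie in the quadrants of equal direction, and the band around 0 is empty because differences under 0.1 were not listed.

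The wider presynaptic and trafficking machinery was listed in part. Of 120 genes in 6 lists, 35 had an event in at least 1 cKO table, 11 in both cortical tables and 3 in all 3 (Epn1, Erc2 and Syt7). The lists include the 5 genes. How many genes were tested is not known, so no share over all genes can stand beside these counts or those by role below. With Emx1-Cre, 22 were listed, 6 with a higher and 16 with a lower level in their largest event, beside 51.1% higher over all 1043 listed genes. With Gad2-Cre, 22 were listed, 8 higher and 14 lower, beside 48.1% higher of 879. In the Purkinje table all 6 listed genes, among them Epn1, Erc2 and Syt7, were higher in group 2, beside 73.5% of 253. The median of the largest difference was 0.266 with Emx1-Cre, 0.174 with Gad2-Cre and 0.166 in the Purkinje layer, beside 0.204, 0.207 and 0.180 over all listed genes. The lists hold the 5 genes and were chosen with earlier results known, so nothing is read from the distance between these shares or medians. For mutually exclusive and splice site events the direction is that of the form the authors name first.

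By role, 7 of 22 active zone genes were listed with Emx1-Cre, 5 with Gad2-Cre and 2 in the Purkinje layer. Of 40 genes of endocytosis and membrane bending, 12, 8 and 2 were listed. Vesicle fusion genes gave 2, 4 and 1 of 19, and synaptotagmins 1, 2 and 1 of 15. Of 9 exocyst genes, 3 were listed in the Gad2-Cre cKO table (Exoc4, Exoc6b and Exoc7), 0 in the Emx1-Cre and Purkinje cKO tables and 1 between the controls (Exoc7). Whether the classes differ in this was not tested. Of 15 integral or associated synaptic vesicle genes 0 were listed in any table; the tables do not say which of these genes were tested.

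Beyond the 5 genes, the largest cortical differences on the lists were in the scaffold kinase Cask. Its 36-nt exon fell from 0.622 to 0.212 in Emx1-Cre and from 0.880 to 0.190 in Gad2-Cre neurons by the authors' values. With Emx1-Cre an exon of the endocytic scaffold Itsn2 fell from 0.681 to 0.297 and a pair of exons of the epsin partner Reps2 from 0.631 to 0.25 by the authors' values. With Gad2-Cre an exon of Cadps2, a priming factor of dense-core vesicles, rose from 0.176 to 0.647 and one of Syt14 fell from 0.60 to 0.225. Coverage was 54.9 for Itsn2 and 49 for Reps2, below the Emx1-Cre median of 71. It was 30 for Cadps2 and 48.8 for Syt14, below the Gad2-Cre median of 64. For Cask it was 257 with Emx1-Cre and 179 with Gad2-Cre. In the Purkinje layer the authors' levels in groups 1 and 2 were 0.272 and 0.449 for Epn2, 0.424 and 0.564 for Stxbp5l, which binds syntaxin, and 0.128 and 0.234 for Unc13c, a priming factor whose row also names another gene model.

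**Figure D4:**
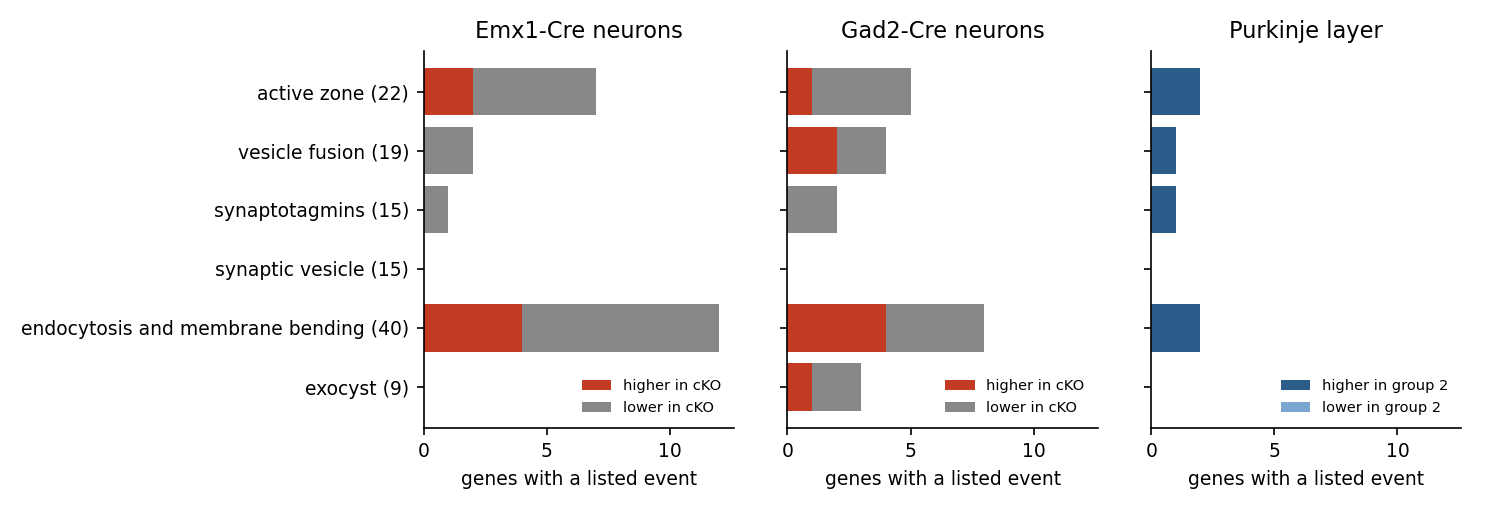
Bars count the genes of 6 lists (list size in parentheses) with a listed event in each cKO table, split by whether the event with the largest difference was higher or lower in the cKO (Emx1-Cre and Gad2-Cre) or in group 2 (Purkinje layer). Endocytosis and active zone genes make up most of the listed genes in both cortical tables. These are also the largest lists, with 40 and 22 of the 120 genes, so nothing is read from that. The synaptic vesicle list has none, and exocyst genes have a bar in the Gad2-Cre panel and none in the panels of Emx1-Cre neurons and the Purkinje layer.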

How the data were processed

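Of 30 samples, 18 in 6 groups of 3 stand behind the tables used; their titles gave the groups. Per the labels, the authors used Quantas for splicing, with mm10 as the build. Submitters' processing notes add kallisto and edgeR without a role. Aligner and versions: not given in the sources used here. Per the file headers, each deposited table holds 1 inclusion rate per group (a fraction, pooled by the authors), their difference (a score, group 1 minus group 2), the authors' p-value and FDR, and coverage, a deposited signal that no source used here defines. Depth per library is unknown. Deposited interval lists gave the positions, counted here from 1.

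Rows were matched to the 5 genes by symbol, and differences were recomputed as group 2 minus group 1. Events were matched between tables by identifier, after leaving out identifiers that occur more than once in a table. No test was run, since pooled levels have no spread. The Purkinje group order is not named. Exon sequences and annotation come from GENCODE M21 transcripts and gene models; intron flanks were planned and not read, so motif counts cover exons only. Named events were the largest of each type per gene and cKO table, the 3 list genes other than the 5 with the largest differences, and the 2 genes closest in level. The members and lists were chosen with earlier results of these data known. Matching and motif counting were tested on simulated data (Python 3.11.15, pandas 2.3.3).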

Additional observations from a re-analysis of the deposited data

How the results depend on the processing

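The 80 listed rows of the 5 genes became 54 with a difference of at least 0.2, 66 with an FDR of at most 0.01 and 59 with a coverage of at least 50. With cassette exons only they were 26, and 15 with 1 event per gene and table, both by construction. The 10 events in both cortical tables became 7, 8 and 9 under those 3 limits, 3 with cassette exons only and 9 when matched by the exon's coordinates; under each limit the same number had the same direction (7, 8, 9 and 3). The 35 list genes became 16 with a difference of at least 0.2, 22 with an FDR of at most 0.01, 29 with a coverage of at least 50 and 23 with cassette exons only. Per 100 bases, 4 of the 11 coding exons exceeded the median motif content of listed exons, against 3 by number. No paired analysis was possible because the tables hold pooled levels with no replicate, and for the same reason no replicate could be left out. Motif counts with intron on each side were not run, for want of a genome sequence. Coverage was low, from 22 to 68, for the Exoc7 events, the cortical Syt7 events and the Sh3glb2 events other than the 1450-nt intron.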
